A study of Mus musculus with 18 samples.

Results

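Lysosomes are the acidic compartments in which cells break down proteins, glycans and lipids, and the 40 genes described here encode enzymes of the lysosomal lumen, proteins of its membrane, subunits of its proton pump and 3 transcription factors of the MiT family. They were chosen by gene symbol from a count table of 54752 mouse genes. All 40 were in the table, and all passed the filter on low counts that left 21914 genes for testing. By role they comprise 9 proteases, 8 enzymes that act on glycans (7 glycosidases and the sulfatase gene Arsb), 7 genes of lipid breakdown and export, 2 other lumenal proteins, 6 membrane proteins, 5 subunits of the V-ATPase and the MiT factors Tfeb, Tfec and Mitf.

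Lysosomal hydrolases work at low pH, which the V-ATPase maintains by pumping protons into the lumen. TFEB, MITF and their relatives bind short DNA motifs that contain CACGTG near many lysosomal genes, and TFEB is kept in the cytoplasm when nutrients are plentiful. In the liver, hepatocytes carry many lysosomes, and macrophages are known for high levels of cysteine proteases such as cathepsin S.

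Liver RNA came from 18 male C57BL/6 mice, with 1 library per mouse and 6 mice in each of 3 groups. Over 12 weeks, Control mice had 2 intraperitoneal injections of corn oil a week, dosed at 10 µl for each g of weight. They were given double distilled water by mouth daily. Cirrhosis mice were injected with 10% carbon tetrachloride (CCl4), a solvent that injures hepatocytes, at the same volume and schedule, and were given the same water. Cirrhosis-PTH mice received CCl4 as well and were dosed by mouth daily with PTH, which is the traditional Chinese medicine Pien Tze Huang. The daily dose was 0.25 mg per g from a 50 mg/ml solution. No group received PTH without CCl4. The mice were 6 weeks old at purchase, and the protocol describes 15 mice per group, of which 6 per group have libraries here.

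Library totals ran from 62.5 to 112.3 M counts, and loci that collect ribosomal RNA reads took 31.4% to 60.8% of them, with the highest shares in Control 7 and Control 8. Some marker lists for the cell types of the liver differed between the groups, and others did so less. The summed level of 11 hepatocyte genes ran from 46638 to 62907 CPM in Control, from 30015 to 50622 CPM in Cirrhosis and, with PTH, from 45066 to 49719 CPM, and none of the 11 was at 0. CPM is the count divided by the library size in M counts, after scaling by the trimmed mean of M values. Summed levels of 13 genes of recruited and scar-associated macrophages ran from 55.1 to 103.8, from 363.2 to 596.4 and from 104.0 to 214.1 CPM for these groups, again with no gene at 0. For 10 genes common to macrophages and leukocytes the sums were 170.3 to 295.7, 525.6 to 913.3 and 261.1 to 334.7 CPM, and for 10 genes of resident Kupffer cells 454.9 to 591.8, 292.3 to 599.7 and 342.8 to 518.4 CPM. Sums for 10 genes of stellate cells and myofibroblasts were 263.2 to 407.8, 836.5 to 1118 and 367.3 to 788.7 CPM. For 6 cholangiocyte genes they were 16.9 to 22.1, 25.7 to 59.0 and 16.6 to 26.5 CPM. Those of 8 genes of sinusoidal endothelium were 405.9 to 491.1, 370.8 to 436.1 and 441.0 to 476 CPM. Hepatocyte, Kupffer cell and endothelial sums overlapped between Control and Cirrhosis, while the other sums given here did not. The part of these lists in the results below was not tested. In bulk RNA, a change in the number of cells of a type cannot be told apart from a change in RNA per cell.

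Promoter sequence is shown first because CACGTG, the E-box core that MiT factors recognise, is read from the genome and not from the counts. Motifs with this core are known near many lysosomal genes, so their share among genes chosen as lysosomal is a description, not an independent result. RefSeq promoters on GRCm38.p6, each 250 bases before to 50 bases after a start site, were matched by symbol for 34 of the 40 genes. CACGTG, which reads the same on both strands, was present in 12 of these 34 genes, or 35.3%, against 10.8% of the 12754 tested genes with a promoter and 8.09% of all 27025 genes with one. The longer TCACGTGA, which contains it, was present in 20.6% of the 34 genes and 1.89% of the tested genes. The median GC content of the windows was 56.3% for the lysosomal genes and 59.3% for the tested genes. Windows of genes with 2 or more start sites counted once per gene, and their number per gene can raise a share. Per window the CACGTG shares were 29.3% and 9.07%.

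Stretches around CACGTG are printed for 5 genes, chosen to include genes that rose, fell and were not called in Cirrhosis and to lie outside annotated exons. Each runs 5′ to 3′ on the strand of its gene, with CACGTG in capitals.
Lgmn, which rose: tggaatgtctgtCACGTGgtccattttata
Atp6v1a, which rose: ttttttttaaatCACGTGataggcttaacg
Gaa, which fell: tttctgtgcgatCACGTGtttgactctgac
Lamp1, which fell: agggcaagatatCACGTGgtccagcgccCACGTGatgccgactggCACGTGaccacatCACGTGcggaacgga
Glb1, not called: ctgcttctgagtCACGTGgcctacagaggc
The Lgmn stretch is chr12:102439124-102439153 and the Atp6v1a stretch chr16:44139373-44139402, both on the minus strand, inside the annotated span of their own gene and outside its exons. The Gaa stretch is chr11:119267811-119267840, the Lamp1 stretch chr8:13159088-13159160 and the Glb1 stretch chr9:114401018-114401047, all on the plus strand and in no annotated gene. Lamp1 held 4 copies of CACGTG within its last 73 bases before the start, the most of any of the 34 genes. Among genes with a promoter window, the motif was in 6 of 18 that rose in Cirrhosis (Atp6v1a, Ctsd, Ctsl, Gla, Ifi30 and Lgmn), in 3 of 9 that fell (Gaa, Lamp1 and Mcoln1) and in 3 of 7 that were not called (Atp6v0d1, Ctsa and Glb1). A match is a description of these letters, not a bound site.

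More of the 40 genes were higher than lower in Cirrhosis livers against Control livers, with a split by role. In Cirrhosis against Control, 23 of 40 were higher, 10 were lower and 7 were not called at an adjusted p of 0.05 (edgeR quasi-likelihood F-test, Benjamini-Hochberg adjustment over all genes tested). Of all genes tested in that comparison, 25.5% were higher and 25% lower. The median log2 fold change of the 40 genes was 0.38, and that of all tested genes 0.02. A change of at least 2-fold was called for 9 of the 40, all higher, against 14.2% of all genes higher and 8% lower by that measure. Every Cirrhosis library lay above every Control library for 19 genes and below for 9, where 15.6% and 14.7% of all genes did so.

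With PTH, more of the genes were lower than higher against Cirrhosis. In Cirrhosis-PTH against Cirrhosis, 9 of the 40 genes were higher and 19 lower, where 20.1% and 18.6% of all tested genes were, and the median log2 fold change was -0.18. Libraries did not overlap for 7 genes above and 13 below, where 11.8% and 11% of all genes did not. In Cirrhosis-PTH against Control, 8 genes were higher and 2 lower, where 6.34% and 2.48% of all tested genes were, and the median was 0.07. Libraries did not overlap for 6 genes above and 2 below in that comparison, against 3.07% and 1.4% of all genes.

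Pairs of these comparisons share libraries, so the calls are given side by side without a test. Of the 23 genes that rose in Cirrhosis, 19 were lower with PTH (82.6%, against 63.4% of all risen genes), and of the 10 that fell, 9 were higher with PTH (90%, against 72.3%). Atp6v0d2, Atp6v1b2, Cd63, Ctsd, Ctsk, Ctss and Laptm5 rose, were lower with PTH and were still called higher than Control. Atp6v1a, Atp6v1h, Ctsb, Ctsl, Gla, Gusb, Hexa, Ifi30, Lgmn, Mitf, Psap and Tfec rose, were lower with PTH and were not called against Control, which does not show that they equalled it. Npc2 rose and was still higher than Control with PTH, while its difference between the CCl4 groups was not called. Asah1, Grn and Ppt1 rose and were not called in either comparison with PTH. Arsb, Gaa, Lamp1, Lamp2, Neu1, Scarb2 and Smpd1 fell, were higher with PTH and were not called against Control, and Mcoln1 and Npc1 did the same but remained called lower than Control. Tpp1 fell and was not called elsewhere. Atp6v0d1, Ctsa, Ctsz, Glb1, Lipa, Man2b1 and Tfeb were called in no comparison. Some missing calls appeared when 1 library was left out: Ctsa (adjusted p = 0.0194) and Ctsz (adjusted p = 0.0304) were lower in Cirrhosis without Cirrhosis 2, Npc2 was lower with PTH than in Cirrhosis without Cirrhosis-PTH 3, Tpp1 was higher in that comparison without Cirrhosis-PTH 3 or 6, and Ppt1 was higher with PTH than in Control without Cirrhosis-PTH 2 (adjusted p = 0.027). Those of Asah1, Glb1, Grn, Lgmn and Mitf are given with each gene. Without both Control 7 and Control 8, Psap (adjusted p = 0.049) and Atp6v1a (adjusted p = 0.0364) were called higher with PTH than in Control. Ctsb was called higher in that comparison in a DESeq2 fit (adjusted p = 0.0479).

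**Figure D1:**
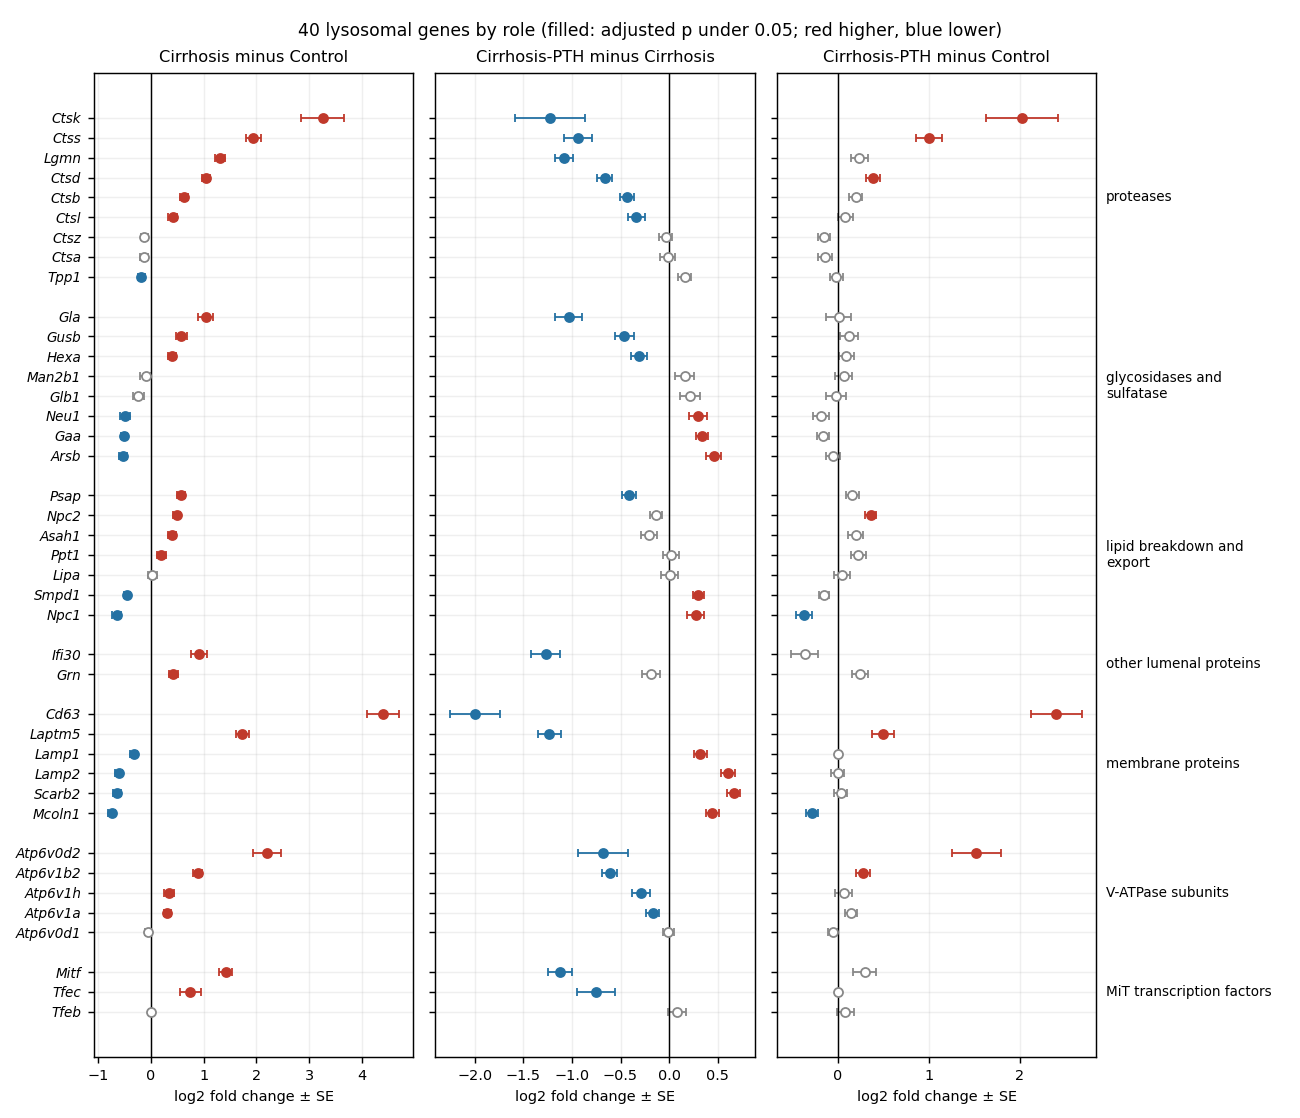
Log2 fold change ± SE (x axis) of the 40 genes (y axis, by role) in Cirrhosis minus Control, Cirrhosis-PTH minus Cirrhosis and Cirrhosis-PTH minus Control, each panel with its own x range; filled points passed an adjusted p of 0.05, red higher and blue lower. In the first panel 23 genes are red and 10 blue, in the second 9 and 19, and in the third 8 and 2.

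Among the 9 proteases, 6 rose in Cirrhosis, 1 (Tpp1) fell and Ctsa and Ctsz were not called. All 6 that rose were lower with PTH. Of all tested genes, 25.5% rose and 25% fell in Cirrhosis. With PTH, 63.4% of all risen genes were lower and 72.3% of all fallen genes higher. Counts by role below stand against the same shares. The fall of Tpp1 (log2 fold change -0.18, adjusted p = 0.0361) was lost under 15 of the 26 alternatives, with adjusted p up to 0.227, among them without any 1 of Control 1, 2, 3, 6 and 7, Cirrhosis 1, 5 and 6 and Cirrhosis-PTH 4. Log2 fold changes in Cirrhosis against Control ran from -0.18 for Tpp1, a tripeptidyl peptidase, to 3.25 for Ctsk.

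Ctsk (ENSMUSG00000028111, chromosome 3, 95499256 to 95509362; gene positions here and below are GENCODE vM21 on GRCm38) encodes cathepsin K, a collagen-degrading cysteine protease best known from osteoclasts. Its lowest, median and highest CPM over the 6 libraries were 0.186, 0.565 and 0.947 CPM in Control, 2.97, 5.55 and 6.74 in Cirrhosis, and 1.13, 1.63 and 4.76 in Cirrhosis-PTH. All Cirrhosis and Cirrhosis-PTH libraries lay above all Control libraries, and the 2 CCl4 groups overlapped. The rise had a log2 fold change of 3.25 ± 0.40 SE and an adjusted p of 1.6e-06. With PTH the level was lower than in Cirrhosis (log2 fold change -1.23 ± 0.36 SE, adjusted p = 0.0103) and still above Control (log2 fold change 2.02 ± 0.40 SE, adjusted p = 0.00284).

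Marker genes of osteoclasts, 7 in all, summed to 16.3 to 22.5 CPM in Control, 24.2 to 47.3 in Cirrhosis and, with PTH, 18.6 to 20.5. The sums of all Cirrhosis libraries thus lay above those of all Control libraries. Of the 5 that could be tested, 3 were higher and 1 lower in Cirrhosis, where 25.5% and 25% of all tested genes were. With PTH against Cirrhosis, 3 were lower and 1 higher, where 18.6% and 20.1% of all tested genes were. The list was not uniform: Calcr, the calcitonin receptor, was at 0 in every Cirrhosis and Cirrhosis-PTH library, and Oscar did not exceed 0.164 CPM in any library. The part of such cells in the level of Ctsk was not tested.

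Ctss (ENSMUSG00000038642, chromosome 3, 95526786 to 95556403) encodes cathepsin S, which trims the invariant chain in antigen-presenting cells. Its lowest, median and highest levels were 18.5, 25.4 and 40.3 CPM in Control, 88.6, 106 and 115 in Cirrhosis, and 44.4, 50.0 and 66.3 in Cirrhosis-PTH. The 3 groups did not overlap, with Cirrhosis highest and Control lowest. Against Control it rose in Cirrhosis (log2 fold change 1.94 ± 0.15 SE, adjusted p = 1.77e-09), it was lower with PTH than without (log2 fold change -0.94 ± 0.14 SE, adjusted p = 2.09e-05), and it stayed higher than Control (log2 fold change 1.0 ± 0.14 SE, adjusted p = 0.000163).

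Lgmn (ENSMUSG00000021190, chromosome 12, 102394084 to 102439813) encodes legumain, which cleaves after asparagine and matures several cathepsins. Its levels were 37.5, 43.8 and 55.2 CPM in Control, 95.1, 107 and 147 in Cirrhosis, and 50.8, 51.9 and 56.2 in Cirrhosis-PTH. Every Cirrhosis library lay above all others, and the Control and Cirrhosis-PTH libraries overlapped. The rise had a log2 fold change of 1.32 ± 0.10 SE and an adjusted p of 6.46e-10, and the difference with PTH a log2 fold change of -1.08 ± 0.09 SE and an adjusted p of 2.35e-08. Against Control the Cirrhosis-PTH level was not called (log2 fold change 0.23 ± 0.09 SE, adjusted p = 0.131), although it was at an adjusted p of 0.0388 without Control 8 and 0.0479 without both Control 7 and Control 8.

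Ctsd (ENSMUSG00000007891, chromosome 7, 142375911 to 142388038) encodes cathepsin D, the main lysosomal aspartic protease and, per length, the most highly expressed of the 9. RPKM (CPM divided by the exon length in kilobases) averaged 75.8 in Control, 156 in Cirrhosis and, with PTH, 98.8. In CPM its levels were 172, 179.6 and 182 CPM in Control, 311, 377 and 415 in Cirrhosis, and 216, 225 and 272 in Cirrhosis-PTH. The groups did not overlap. It rose in Cirrhosis (log2 fold change 1.04 ± 0.08 SE, adjusted p = 9.6e-10), was lower with PTH (log2 fold change -0.66 ± 0.08 SE, adjusted p = 7.99e-07) and remained above Control (log2 fold change 0.38 ± 0.08 SE, adjusted p = 0.00312).

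Ctsb and Ctsl, which encode cathepsins B and L, rose by smaller amounts. Mean ± SD of Ctsb was 304 ± 16.3 CPM in Control, 469 ± 41.3 in Cirrhosis, 348 ± 26.0 in Cirrhosis-PTH, with a log2 fold change of 0.63 in Cirrhosis and -0.43 with PTH. Ctsl stood at 272 ± 20.4 CPM in Control, 363 ± 36.4 in Cirrhosis, 288 ± 29.8 in Cirrhosis-PTH, with log2 fold changes of 0.42 and -0.34.

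The exons of Ctsd, Ctsb, Ctsl, Ctsa and Ctsz overlap those of other annotated genes (Ctsb those of Fdft1, for example). The same holds for Hexa, Glb1, Arsb, Npc1, Ppt1, Grn, Lamp1 and Atp6v1h. Ctsd, Ctsl and Glb1 overlap a gene on the same strand (Gm49369, Gm49230 and Tmppe), which a strand setting would not separate. The others overlap only genes on the opposite strand, and the strand setting of the counting is not given in the sources used here. Reads from the bases that such a pair shares cannot be told apart.

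**Figure D2:**
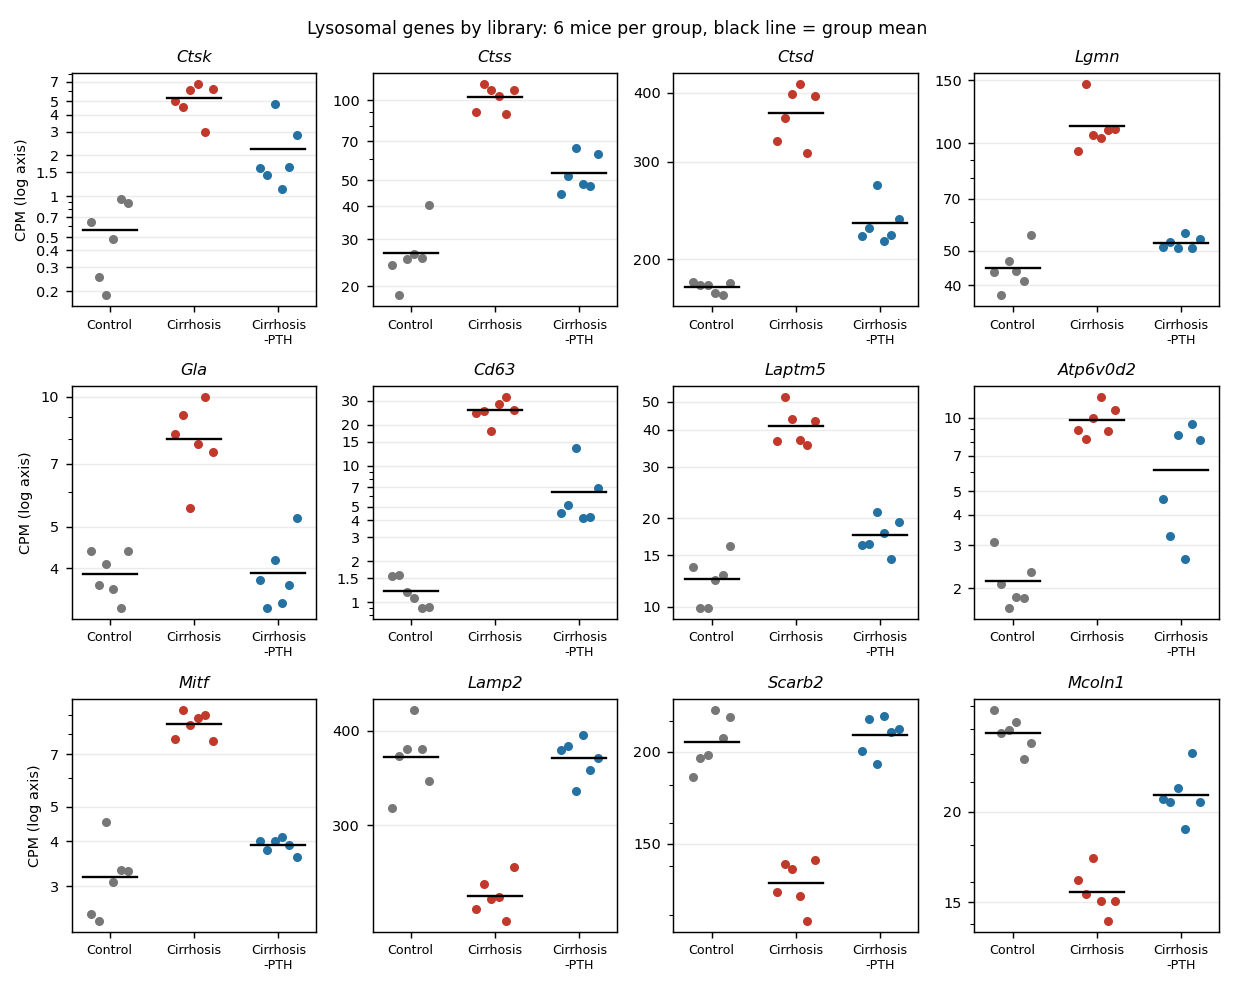
CPM (log axis) of 12 lysosomal genes in each library, 6 per group, with black lines at the group means; the 9 genes that rose at least 2-fold in Cirrhosis come first, then 3 genes that fell. Ctss and Ctsd separate into 3 groups, while Lamp2 and Scarb2 libraries of Cirrhosis lie below those of both other groups.

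The enzymes of glycan breakdown split evenly, with 3 of 8 higher in Cirrhosis and 3 lower, against 25.5% and 25% of all tested genes. The 3 that rose (Gla, Gusb and Hexa) were lower with PTH and the 3 that fell (Gaa, Neu1 and Arsb) were higher with PTH. None of the 8 was called between Cirrhosis-PTH and Control, where log2 fold changes ran from -0.19 for Neu1 to 0.12 for Gusb.

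Gla (ENSMUSG00000031266, chromosome X, 134588149 to 134601125) encodes alpha-galactosidase A, the enzyme lacking in Fabry disease. Its levels were 3.24, 3.88 and 4.39 CPM in Control, 5.53, 7.97 and 10.0 in Cirrhosis, and 3.23, 3.71 and 5.23 in Cirrhosis-PTH. Cirrhosis libraries lay above all others. The rise had a log2 fold change of 1.04 ± 0.14 SE and an adjusted p of 3.12e-06 and the difference with PTH a log2 fold change of -1.03 ± 0.14 SE and an adjusted p of 5.21e-06. Between Cirrhosis-PTH and Control the log2 difference was 0.01 ± 0.14 SE.

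Hexa, for the alpha subunit of beta-hexosaminidase, had the highest level per length of the 8 genes in Cirrhosis (mean 18.1 RPKM) and in Cirrhosis-PTH (14.7), while in Control Gaa (15.2) and Man2b1 (13.77) lay above it (13.74). Mean ± SD was 27.4 ± 2.47 CPM in Control, 36.2 ± 4.72 in Cirrhosis, 29.3 ± 1.35 in Cirrhosis-PTH. Some libraries overlapped between all groups. Its level rose in Cirrhosis (log2 fold change 0.40 ± 0.08 SE, adjusted p = 0.000233) and was lower with PTH (log2 fold change -0.31 ± 0.08 SE, adjusted p = 0.00359).

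Gaa, for the acid alpha-glucosidase that degrades glycogen, moved the other way. Its levels were 69.0, 72.3 and 77.4 CPM in Control, 48.3, 50.5 and 55.5 in Cirrhosis, and 58.5, 64.7 and 72.2 in Cirrhosis-PTH. Cirrhosis libraries lay below all others. It fell in Cirrhosis (log2 fold change -0.50 ± 0.06 SE, adjusted p = 6.83e-07) and was higher with PTH (log2 fold change 0.34 ± 0.06 SE, adjusted p = 0.000131), with a difference from Control that was not called (log2 fold change -0.16 ± 0.06 SE, adjusted p = 0.105).

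Neu1, the lysosomal sialidase, and Arsb, arylsulfatase B, fell by 0.49 and 0.52 on the log2 scale. The changes were thus not uniform even among enzymes that degrade the same gangliosides or glycosaminoglycans: Hexa and Gusb rose where Neu1 and Arsb fell, and Glb1 (log2 fold change -0.24, adjusted p = 0.0696) was not called. Glb1 was called lower in Cirrhosis under 5 alternatives, with adjusted p from 0.0263 to 0.0384, among them without any 1 of Control 7, Control 8 and Cirrhosis 3.

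Of 7 genes of lipid breakdown and export, Psap, Npc2, Asah1 and Ppt1 rose in Cirrhosis, Npc1 and Smpd1 fell, and Lipa was not called.

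Psap encodes prosaposin, the precursor of the saposins that activate sphingolipid hydrolases, and was the most highly expressed of the 40 genes per length in Cirrhosis at a mean of 160 RPKM. Its levels were 276, 289 and 329.7 CPM in Control, 390.3, 447 and 467 in Cirrhosis, and 305, 328 and 369 in Cirrhosis-PTH. Every Cirrhosis library exceeded all libraries of the other groups. It was higher in Cirrhosis than in Control (log2 fold change 0.57 ± 0.07 SE, adjusted p = 8.61e-07) and was lower with PTH (log2 fold change -0.41 ± 0.07 SE, adjusted p = 6.97e-05).

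Npc1 and Npc2 encode the membrane and the lumenal protein that hand cholesterol out of the lysosome, and they moved in opposite directions. Npc2 had levels of 31.1, 34.5 and 36.9 CPM in Control, 44.0, 47.8 and 52.6 in Cirrhosis, and 40.9, 43.0 and 49.8 in Cirrhosis-PTH. Both CCl4 groups lay above Control. Against Control, it was higher in Cirrhosis (log2 fold change 0.49 ± 0.06 SE, adjusted p = 1.13e-06) and was higher than Control with PTH (log2 fold change 0.36 ± 0.06 SE, adjusted p = 0.000812).

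Npc1, named here after its values were seen, had levels of 163, 174 and 188 CPM in Control, 91.1, 109.5 and 136 in Cirrhosis, and 109, 137 and 151 in Cirrhosis-PTH. Both CCl4 groups lay below Control and overlapped each other. It fell in Cirrhosis (log2 fold change -0.64 ± 0.09 SE, adjusted p = 3.78e-06) and was lower than Control with PTH (log2 fold change -0.37 ± 0.09 SE, adjusted p = 0.0111), a call lost without both Control 7 and Control 8 at an adjusted p of 0.0603. The difference between the CCl4 groups (log2 fold change 0.27, adjusted p = 0.0188) was lost without Cirrhosis 2 and without Cirrhosis-PTH 1, with adjusted p up to 0.0621 among the alternatives that lost it.

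Smpd1, for acid sphingomyelinase, had levels of 26.4, 27.2 and 30.9 CPM in Control, 19.2, 20.3 and 21.4 in Cirrhosis, and 23.9, 24.9 and 26.2 in Cirrhosis-PTH. The 3 groups did not overlap, with Cirrhosis lowest and Control highest, although the difference between Cirrhosis-PTH and Control was not called (log2 fold change -0.15 ± 0.06 SE, adjusted p = 0.103). It fell in Cirrhosis (log2 fold change -0.45 ± 0.06 SE, adjusted p = 8.16e-07) and was higher with PTH (log2 fold change 0.30 ± 0.06 SE, adjusted p = 0.000164). Asah1, acid ceramidase, which acts on the product of Smpd1, rose at the same time (log2 fold change 0.40, adjusted p = 0.000319). Its difference between the CCl4 groups was just short of the threshold (log2 fold change -0.21, adjusted p = 0.0507) and was called lower with PTH under 10 of the 26 alternatives, with adjusted p from 0.0223 to 0.0471, among them without any 1 of Control 2, Cirrhosis 1 and 5 and Cirrhosis-PTH 3 and 4. Ppt1, a thioesterase that removes palmitate from proteins, rose with a log2 fold change of 0.20 (adjusted p = 0.042), a call lost under 8 alternatives with adjusted p up to 0.133, among them without any 1 of Control 1, 3, 6 and 7 and Cirrhosis 1, 2 and 3. Lipa, the lysosomal acid lipase, averaged 118, 120 and 121 CPM in Control, Cirrhosis and Cirrhosis-PTH.

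Both other lumenal proteins rose in Cirrhosis. Ifi30 (ENSMUSG00000031838, chromosome 8, 70762774 to 70766663) encodes GILT, a thiol reductase that unfolds antigens. Its levels were 7.94, 9.07 and 12.8 CPM in Control, 13.8, 17.6 and 25.7 in Cirrhosis, and 5.31, 7.75 and 8.71 in Cirrhosis-PTH. The Cirrhosis group lay wholly above the other 2. It rose (log2 fold change 0.91 ± 0.15 SE, adjusted p = 3.05e-05) and was lower with PTH (log2 fold change -1.27 ± 0.15 SE, adjusted p = 8.7e-07), and its level with PTH was not called against Control (log2 fold change -0.36 ± 0.15 SE, adjusted p = 0.141). Its exons overlap those of 6330537M06Rik on the opposite strand, so reads from the bases they share cannot be told apart.

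Grn, for the secreted and lysosomal protein progranulin, had levels of 95.0, 116 and 147 CPM in Control, 137, 157 and 178 in Cirrhosis, and 129.8, 138 and 144 in Cirrhosis-PTH. All 3 groups overlapped. It rose in Cirrhosis (log2 fold change 0.43 ± 0.09 SE, adjusted p = 0.000354), and neither comparison with PTH was called. That with Control was called without Control 8 (adjusted p = 0.0146) and without both Control 7 and Control 8 (adjusted p = 0.00548). That with Cirrhosis was called without both of these libraries (adjusted p = 0.0271) and in a fit of only the 12 libraries compared (adjusted p = 0.0269).

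The 6 membrane proteins all changed in Cirrhosis, 2 upward and 4 downward, where 25.5% and 25% of all tested genes did. All 6 changed the opposite way with PTH, as did 63.4% of all risen and 72.3% of all fallen genes. The 4 membrane proteins that fell include Lamp1 and Lamp2, the most abundant proteins of the lysosomal membrane.

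Cd63 (ENSMUSG00000025351, chromosome 10, 128900989 to 128912822) encodes a tetraspanin of late endosomes, lysosomes and exosomes, and had the largest change of the 40 genes. Per length it had the lowest level of the 40 in Control, at a mean of 0.326 RPKM. Its levels in CPM were 0.903, 1.13 and 1.58 CPM in Control, 18.1, 25.3 and 32.2 in Cirrhosis, and 4.18, 4.84 and 13.4 in Cirrhosis-PTH. The 3 groups did not overlap. Its level rose in Cirrhosis (log2 fold change 4.40 ± 0.30 SE, adjusted p = 1.56e-09), was lower with PTH (log2 fold change -2.0 ± 0.26 SE, adjusted p = 6.44e-06) and remained above Control (log2 fold change 2.40 ± 0.28 SE, adjusted p = 4.4e-05).

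The table also lists Cd63-ps, a processed pseudogene whose reads may not be separable from those of Cd63. Cd63-ps averaged 1.22 ± 0.316 CPM in Control, 3.13 ± 0.579 in Cirrhosis and, with PTH, 1.71 ± 0.435 (SD, n = 6), so in Control it held about as many counts as Cd63 itself. With both summed, an alternative chosen after seeing the data, the log2 fold changes were 3.57 in Cirrhosis against Control, -1.83 with PTH against Cirrhosis and 1.75 against Control, each still called.

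Laptm5 (ENSMUSG00000028581, chromosome 4, 130913125 to 130936141) encodes a lysosomal membrane protein of blood cells. Its levels were 9.88, 12.6 and 16.2 CPM in Control, 35.5, 39.997 and 51.9 in Cirrhosis, and 14.6, 17.1 and 20.9 in Cirrhosis-PTH. Cirrhosis libraries lay above all others, and the other 2 groups overlapped. It rose (log2 fold change 1.73 ± 0.12 SE, adjusted p = 5.91e-10), was lower with PTH (log2 fold change -1.23 ± 0.12 SE, adjusted p = 1e-07) and remained above Control (log2 fold change 0.50 ± 0.12 SE, adjusted p = 0.0122).

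Lamp1, a heavily glycosylated protein that lines the inside of the lysosomal membrane, was the most highly expressed of the 40 genes per length in Control, at a mean of 120 RPKM. Its levels in CPM were 298, 321 and 345 CPM in Control, 239, 254 and 283 in Cirrhosis, and 283, 329.6 and 356 in Cirrhosis-PTH. Cirrhosis libraries lay below all others. It fell in Cirrhosis (log2 fold change -0.32 ± 0.07 SE, adjusted p = 0.000613) and was higher with PTH (log2 fold change 0.32 ± 0.07 SE, adjusted p = 0.000881).

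Lamp2, Scarb2 and Mcoln1 are described after their values were seen. Lamp2, the partner of Lamp1, had levels of 316, 374 and 427 CPM in Control, 224, 241 and 264 in Cirrhosis, and 333, 373 and 395 in Cirrhosis-PTH, and its log2 fold change was -0.61 in Cirrhosis and 0.60 with PTH. Scarb2, which carries glucocerebrosidase to the lysosome, had levels of 184, 203 and 228 CPM in Control, 118, 134 and 143 in Cirrhosis, and 192, 213 and 223 in Cirrhosis-PTH, with log2 fold changes of -0.64 and 0.67. For both genes the Cirrhosis libraries lay below all others, while Control and Cirrhosis-PTH overlapped.

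Mcoln1, the lysosomal calcium channel TRPML1, had levels of 23.6, 25.8 and 27.7 CPM in Control, 14.1, 15.2 and 17.2 in Cirrhosis, and 18.9, 20.7 and 24.1 in Cirrhosis-PTH. It fell in Cirrhosis (log2 fold change -0.73 ± 0.07 SE, adjusted p = 1.35e-08), was higher with PTH (log2 fold change 0.45 ± 0.07 SE, adjusted p = 1.42e-05) and stayed below Control (log2 fold change -0.29 ± 0.07 SE, adjusted p = 0.00872), with overlapping libraries. Of 11 hepatocyte markers, 8 were called lower in Cirrhosis and none higher, where 25% and 25.5% of all tested genes were. Those 8 markers moved in the same direction as Lamp1, Lamp2, Scarb2 and Mcoln1, and opposite to Cd63 and Laptm5. The part of hepatocytes in the levels of these genes was not tested.

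**Figure D3:**
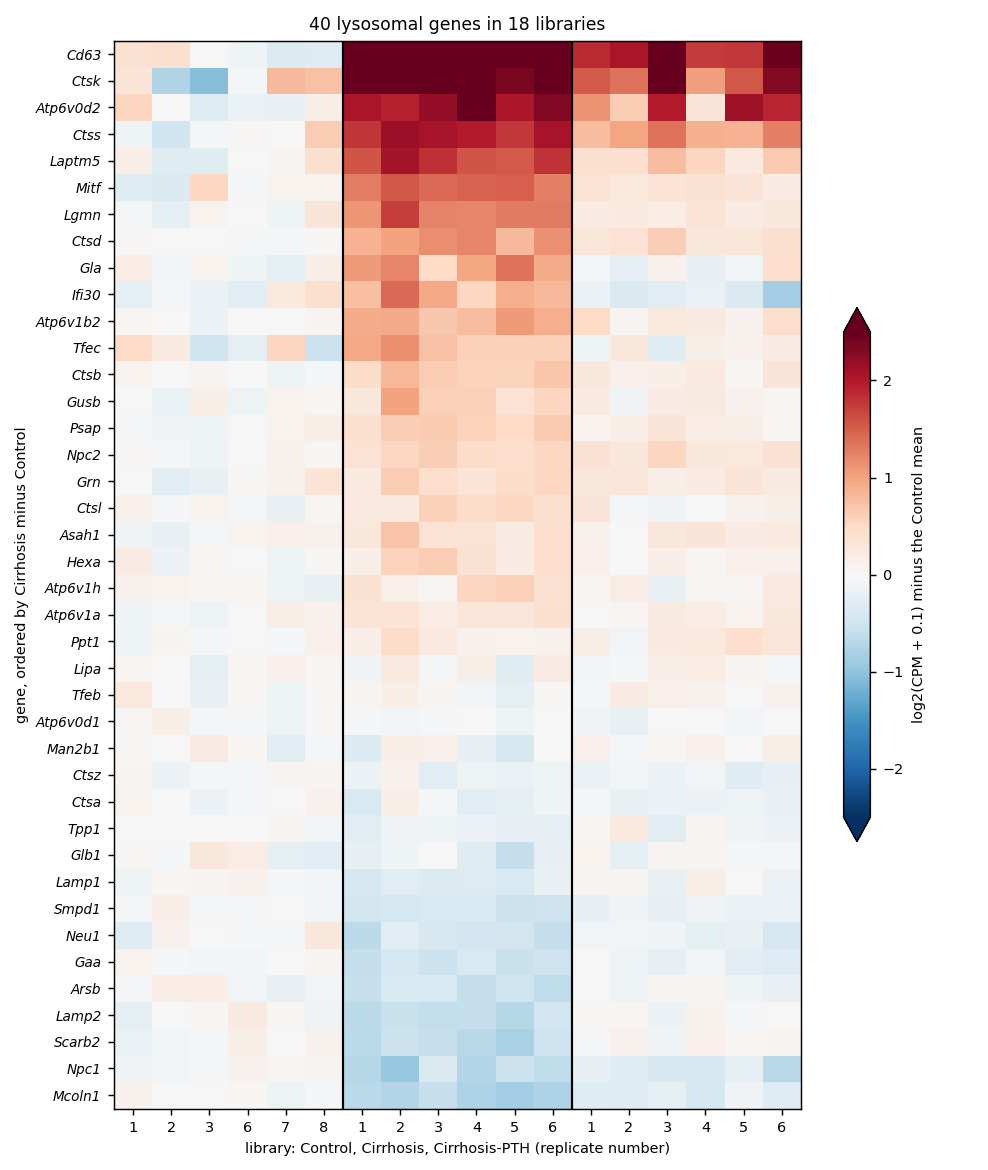
Log2(CPM + 0.1) minus the Control mean (colour) for the 40 genes (rows, ordered by the change in Cirrhosis) in 18 libraries (columns, replicate numbers within Control, Cirrhosis and Cirrhosis-PTH); values beyond ±2.5 take the end colours. Cd63 and Ctsk stay red in Cirrhosis-PTH, while Atp6v0d2 varies there, down to 2.63 CPM in Cirrhosis-PTH 4 (Control 1.66 to 3.09 CPM). The pale rows in the middle are the 7 genes with no call and their neighbours.

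Of the 5 V-ATPase subunits, 4 rose in Cirrhosis and the same 4 were lower with PTH, while Atp6v0d1 was not called. Among all tested genes 25.5% rose, and 63.4% of those were lower with PTH.

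Atp6v0d1 and Atp6v0d2 encode alternative d subunits of the membrane sector, the first found in most cells and the second known from osteoclasts and macrophages. Atp6v0d1, the most highly expressed of the 5 per length, had levels of 34.3, 37.3 and 41.7 CPM in Control, 34.0, 36.4 and 37.3 in Cirrhosis, and 33.1, 36.4 and 37.4 in Cirrhosis-PTH. All groups overlapped, and its log2 fold change in Cirrhosis was -0.05 ± 0.05 SE (adjusted p = 0.466).

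Atp6v0d2 (ENSMUSG00000028238, chromosome 4, 19876841 to 19922605) had levels of 1.66, 1.96 and 3.09 CPM in Control, 8.19, 9.48 and 12.2 in Cirrhosis, and 2.63, 6.38 and 9.46 in Cirrhosis-PTH. Cirrhosis libraries lay above Control, and the Cirrhosis-PTH libraries overlapped both groups. It was higher in Cirrhosis than in Control (log2 fold change 2.2 ± 0.27 SE, adjusted p = 1.55e-06) and was higher than Control with PTH (log2 fold change 1.52 ± 0.27 SE, adjusted p = 0.00131). The difference between the CCl4 groups (log2 fold change -0.68 ± 0.26 SE, adjusted p = 0.0417) was lost under 14 of the 26 alternatives, with adjusted p up to 0.091 among them, including without any 1 of Control 2 and 8, Cirrhosis 1, 3, 4, 5 and 6 and Cirrhosis-PTH 1, 2 and 4.

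Per length, Atp6v0d2 made up 3.62 ± 0.785% of the d subunit RNA in Control, against 15.2 ± 1.66% in Cirrhosis and, with PTH, 9.87 ± 4.24% (SD, n = 6, share of summed RPKM). The ranges were 2.91% to 5.09%, 13.1% to 17.8% and 4.44% to 14.9%, so Cirrhosis did not overlap Control, and Cirrhosis-PTH spanned the space between. These shares were computed after the values were seen and are a description.

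Atp6v1b2, for a B subunit of the ATP-hydrolysing sector, had levels of 26.3, 29.5 and 30.7 CPM in Control, 46.5, 55.3 and 61.3 in Cirrhosis, and 30.7, 34.8 and 41.5 in Cirrhosis-PTH. The 3 groups did not overlap, though the lowest Cirrhosis-PTH library lay just above the highest Control library. It rose (log2 fold change 0.89 ± 0.08 SE, adjusted p = 1.05e-08), was lower with PTH (log2 fold change -0.61 ± 0.08 SE, adjusted p = 2.58e-06) and was called above Control (log2 fold change 0.28 ± 0.08 SE, adjusted p = 0.0312), a call lost without any 1 of Control 2, 3 and 7 and Cirrhosis-PTH 1, 3 and 6, with adjusted p up to 0.081 among the alternatives that lost it. Atp6v1a and Atp6v1h rose by 0.31 and 0.35 on the log2 scale. Their differences with PTH (log2 fold changes -0.17 and -0.29) were lost under 12 and 2 alternatives. For Atp6v1a these include leaving out any 1 of Control 2 and 6, Cirrhosis 1, 2, 4, 5 and 6 and Cirrhosis-PTH 1, 2 and 5, and for Atp6v1h they are leaving out Cirrhosis 4 or Cirrhosis 5.

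The 3 MiT factors were expressed at low levels, and 2 of them rose in Cirrhosis.

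Mitf (ENSMUSG00000035158, chromosome 6, 97807052 to 98021349) encodes the factor known from melanocytes, mast cells and osteoclasts. Its levels were 2.40, 3.19 and 4.54 CPM in Control, 7.61, 8.64 and 9.34 in Cirrhosis, and 3.61, 3.95 and 4.11 in Cirrhosis-PTH. Cirrhosis libraries lay above all others, and the other 2 groups overlapped. It rose (log2 fold change 1.42 ± 0.13 SE, adjusted p = 1.2e-08) and was lower with PTH (log2 fold change -1.12 ± 0.13 SE, adjusted p = 4.55e-07). Its difference from Control with PTH was not called (log2 fold change 0.29 ± 0.13 SE, adjusted p = 0.165), and was at an adjusted p of 0.0223 without Control 3.

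Tfec, a factor of the same family known from macrophages and named after its values were seen, had levels of 1.22, 1.84 and 2.69 CPM in Control, 2.78, 2.94 and 4.15 in Cirrhosis, and 1.45, 1.99 and 2.23 in Cirrhosis-PTH. No library of another group reached the Cirrhosis range. It rose (log2 fold change 0.75 ± 0.20 SE, adjusted p = 0.00332) and was lower with PTH (log2 fold change -0.75 ± 0.20 SE, adjusted p = 0.00414).

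Tfeb, the factor best known for control of lysosomal genes, had levels of 6.36, 7.29 and 8.64 CPM in Control, 6.10, 7.47 and 8.01 in Cirrhosis, and 7.01, 7.77 and 8.40 in Cirrhosis-PTH. All groups overlapped and no comparison was called, with an adjusted p of 0.987 in Cirrhosis against Control. RNA level says nothing of where the protein lies in the cell. Tfe3, the fourth factor of the family and not among the 40 genes, averaged 14.7 ± 1.35, 25.1 ± 3.39 and 13.6 ± 1.18 CPM, with a log2 fold change of 0.77 in Cirrhosis (adjusted p = 3.35e-07) and -0.88 with PTH (adjusted p = 1.31e-07).

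Mitf made up 13.9 ± 3.64% of the summed RPKM of Mitf, Tfeb, Tfec and Tfe3 in Control, against 23.1 ± 1.82% in Cirrhosis and, with PTH, 16.6 ± 1.42% (SD, n = 6). Its ranges were 9.93% to 20.3% in Control, 20.0% to 24.8% in Cirrhosis, 14.7% to 18.3% in Cirrhosis-PTH. The share was computed after the values were seen.

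**Figure D4:**
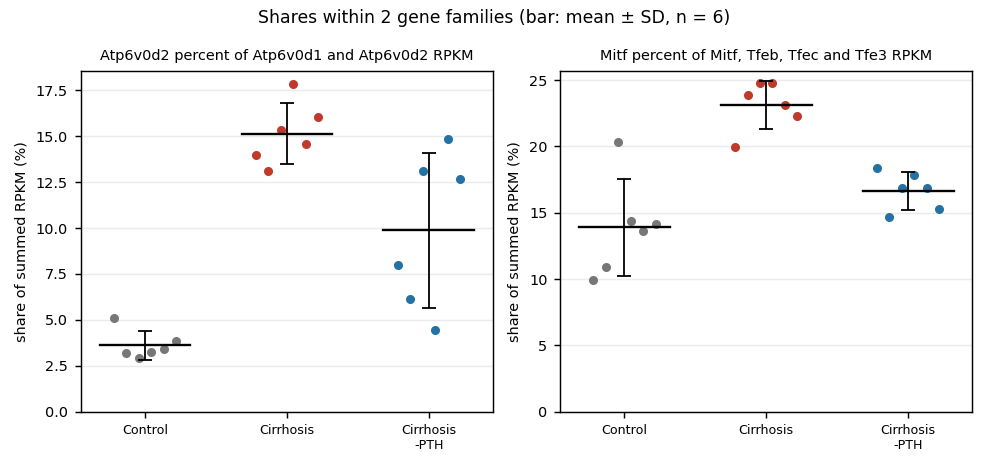
Share of summed RPKM (y axis, percent) held by Atp6v0d2 among the 2 d subunits (left) and by Mitf among the 4 MiT factors (right) in each library (points), with the mean ± SD of 6 libraries per group (bars). Atp6v0d2 averaged 3.62%, 15.2% and 9.87% and Mitf 13.9%, 23.1% and 16.6% in Control, Cirrhosis and Cirrhosis-PTH.

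Some libraries held the highest level of their group for several genes. Of the 19 genes that rose and were lower with PTH, 7 had their highest Cirrhosis-PTH level in Cirrhosis-PTH 3. That is close to the 35.3% of all 3542 genes with the same pair of calls, so it is not particular to the lysosomal genes. In Cirrhosis 2, 8 of the 19 had their highest Cirrhosis level and 2 their lowest, against 26.3% and 18.9% of those 3542 genes. Cirrhosis 2 also had the highest summed level of the 10 macrophage and leukocyte genes (913.3 CPM, next 614.7) and of 8 neutrophil genes (153.4 CPM, next 25.8). Their part in its high lysosomal levels was not tested.

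Other genes of the pathway, taken from lists of lysosomal biology, were more evenly split. Of 64 tested hydrolases, membrane proteins and V-ATPase genes outside the 40, 21 were higher and 15 lower in Cirrhosis, and 12 were higher and 17 lower with PTH than in Cirrhosis. Among all tested genes, 25.5% were higher and 25% lower in Cirrhosis, and 20.1% were higher and 18.6% lower with PTH. The counts of the lists below stand against the same shares. Their median log2 fold changes were 0.02 and 0.01, against 0.38 and -0.18 for the 40 genes. The genes and lists were chosen with earlier results of these data known, and the part of that choice in the difference was not tested.

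Of 30 further hydrolases, 7 rose and 11 fell, against 25.5% and 25% of all tested genes. Ctsf and Ctsh, cathepsins F and H, fell (log2 fold changes -0.67 and -0.55), and both were higher with PTH (0.85 and 0.45).

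Of 18 further membrane proteins and transporters, 8 rose and 4 fell in Cirrhosis. Cd68, the macrophage sialomucin, averaged 4.77 ± 1.32, 18.8 ± 1.95 and 6.55 ± 1.25 CPM in Control, Cirrhosis and Cirrhosis-PTH. Slc37a2, a sugar phosphate transporter of macrophages, averaged 2.07 ± 0.329, 15.1 ± 2.92 and 3.865 ± 1.302 CPM. Both rose (log2 fold changes 1.98 and 2.86) and were lower with PTH (-1.52 and -1.96).

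Gpnmb, a glycoprotein of lysosome-rich macrophages, averaged 1.29 ± 1.29 CPM in Control, 82.7 ± 21.9 in Cirrhosis and, with PTH, 39.9 ± 22.7. Against Control, it was higher in Cirrhosis (log2 fold change 6.11, adjusted p = 5.7e-07), and its difference with PTH was not called (-1.05, adjusted p = 0.099) but was without Cirrhosis-PTH 3 (-1.36, adjusted p = 0.0409).

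Among 16 further V-ATPase genes, 6 rose and none fell in Cirrhosis, and 7 were lower and none higher with PTH. Tcirg1, an a subunit known from osteoclasts and macrophages, averaged 21.7 ± 2.55, 32.6 ± 3.55 and 27.3 ± 1.44 CPM, with a log2 fold change of 0.59 in Cirrhosis (adjusted p = 3.93e-06).

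Of 21 genes that sort enzymes to lysosomes, 6 rose and 5 fell in Cirrhosis, near the shares of all tested genes (25.5% and 25%). Igf2r, the large mannose 6-phosphate receptor, averaged 76.9 ± 3.41, 100.1 ± 12.3 and 73.5 ± 3.13 CPM and rose with a log2 fold change of 0.38 (adjusted p = 0.000127). Sort1, the alternative receptor sortilin, averaged 36.7 ± 3.87, 18.1 ± 1.77 and 18.9 ± 3.997 CPM. It fell in Cirrhosis (log2 fold change -1.02, adjusted p = 1.33e-07), was not called between the CCl4 groups (adjusted p = 0.691) and was lower than Control with PTH (-0.96, adjusted p = 1.5e-05).

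Of 20 tested genes of TFEB control and nutrient sensing, 6 rose and 9 fell, against 25.5% and 25% of all tested genes. Zkscan3, a zinc finger repressor of lysosomal and autophagy genes, averaged 80.2 ± 8.96, 42.2 ± 7.58 and 64.6 ± 6.63 CPM, with log2 fold changes of -0.93 in Cirrhosis (adjusted p = 3.34e-07) and 0.61 with PTH (adjusted p = 8.47e-05).

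The 21 autophagy genes went mostly the other way from the 40 lysosomal genes: 1 rose and 15 fell in Cirrhosis, and 12 were higher and 2 lower with PTH. Gabarapl1, which coats autophagosomes, averaged 238.3 ± 26.5, 106.1 ± 15.6 and 179.7 ± 10.7 CPM, with log2 fold changes of -1.17 (adjusted p = 3.16e-09) and 0.76 (adjusted p = 1.66e-06). Sqstm1, the cargo receptor p62 that autophagy itself degrades as a protein, was the 1 that rose, at 203.2 ± 31.9, 508.5 ± 187.7 and 181.9 ± 25.1 CPM (log2 fold changes 1.32, adjusted p = 1.5e-05, and -1.48, adjusted p = 6.75e-06).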

How the data were processed

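Liver RNA of 18 mice was sequenced after ribosomal RNA removal, per the labels' protocols. The authors deposited whole-number counts per gene in 1 table, 1 column for each library. Per the submitters' processing notes, the build was GRCm38 and the tools included cutadapt 4.2, Trim Galore, Bowtie 1.3.1, Bowtie2, StringTie 2.1.5 and HISAT2 2.2.1, without roles. The counter, annotation release and strandedness are not given in the sources used here. Read depth sets the precision of low genes such as Ctsk and Cd63.

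A single edgeR 4.0.16 fit (R 4.3.3) held all 18 libraries in 3 groups: filterByExpr defaults, TMM scaling, robust quasi-likelihood F-test, two-sided, with Benjamini-Hochberg adjustment over 21914 genes and a threshold of 0.05. Adjusted p-values in the text are from that test unless an alternative is named. SE is the log2 fold change divided by the square root of F. RPKM divides CPM by the summed exon length in GENCODE vM21. The fit was tested on simulated counts.

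Full statistics are given for genes past the threshold with an absolute log2 fold change of at least 1, and for the gene with the highest level per length and the smallest p of each role. From the other lists, up to 3 genes per direction and comparison were eligible. The genes and lists were chosen with earlier results of these data known. The replicate numbers do not pair the mice, as given with the alternatives below.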

Additional observations from a re-analysis of the deposited data

Results flagged for a closer look

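In 120 sets of 6 libraries (40 genes in 3 groups), 8 held a library whose gap to its nearest neighbour exceeded Dixon's 95% critical value for its distance relative to the range, or 6.67%. Chance alone would give about 1 in 20. The values are CPM.

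Cirrhosis-PTH 3 was high in 2 of these sets. It had 13.4 for Cd63, where the next library had 6.89, and 272 for Ctsd, where the next had 236. Ifi30 was low in Cirrhosis-PTH 6 at 5.31, with the next library at 7.44.

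Among Cirrhosis libraries, Lgmn stood at 147 in Cirrhosis 2, against 109 in the next. In Control, Ctss stood at 40.3 in Control 8 (next 26.5) and Smpd1 at 30.9 in Control 2 (next 27.9). Low values in Control 3 were 100.05 for Lipa (next 118) and 26.3 for Atp6v1b2 (next 29.3).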

How the results depend on the processing

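Each result was recomputed under 26 alternatives: RLE size factors, no filter on low counts, a replicate block, no ribosomal RNA loci, no Control 7 and Control 8, a fit of only the 12 libraries compared, DESeq2 1.42.0, each of 18 libraries left out, and Cd63 summed with Cd63-ps, which was chosen after seeing the data. No called fold change of the 40 genes changed sign. Values without a call changed sign 83 times, in 14 genes.

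The median log2 fold change of the 40 genes in Cirrhosis against Control was 0.43 without Control 7 and Control 8, against 0.38. With single libraries left out it was 0.35 to 0.43. The median of all tested genes moved as well, to 0.086 without Control 7 and Control 8, against 0.015. Leaving out single libraries, 22 to 23 genes were higher and 9 to 12 lower in that comparison, 8 to 10 higher and 16 to 21 lower in Cirrhosis-PTH against Cirrhosis, and 7 to 10 higher and 2 lower in Cirrhosis-PTH against Control. The medians with PTH were -0.20 to -0.14 and 0.06 to 0.11. The 2 genes lower in Cirrhosis-PTH than Control became 1 with the replicate block, and 1 without Control 7 and Control 8. The 8 higher genes became 12 at most.

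Replicate numbers do not pair the samples: over 14 same-numbered pairs r ran from -0.06 to 0.05, and 1 of 16 libraries correlated best with its own number. With the replicate block, Ctsk rose by a log2 fold change of 3.87 in Cirrhosis, and the rise of Atp6v1h was not called (adjusted p = 0.108). Low counts limit the precision for Ctsk and Cd63 in Control.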
